A study of Mus musculus with 6 samples.

Results

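Collagen genes and the genes of collagen-modifying enzymes were followed in RNA-seq of the submandibular gland, comparing 3 libraries from p63 knockout (KO) mice with 3 libraries from wild-type (WT) mice. The members were every gene symbol made of Col, a type number and an alpha chain number, apart from Col17a1, together with the chaperone, hydroxylase, propeptide-processing and cross-linking genes named below. There were 60 members among 23366 gene symbols, of which 43 were collagen genes and 17 were enzymes and helpers. All mice were adults aged 12 weeks, and the labels name the material as epithelial cells isolated from the gland. The knockout is named only by the gene p63 (Trp63), and WT library 1 carries the letter C in its title where the others carry WT. The strain, the sex and the way the gene was deleted are not given in the sources used here. Nor is the allotment of mice to libraries, so the p-values below speak of spread among these libraries, which may be technical.

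Collagens are secreted proteins of 3 chains wound into a triple helix. Fibrillar collagens assemble into the fibres of connective tissue, network collagens form the basement membrane beneath epithelium and around vessels, and smaller collagens link fibres to each other or anchor the basement membrane. In the endoplasmic reticulum, prolyl and lysyl hydroxylases modify the chains and a collagen-specific chaperone holds the helix. Outside the cell, propeptides are cut off and lysyl oxidases join neighbouring chains by covalent cross-links. In glands, fibroblasts make most fibrillar collagen, while epithelial, myoepithelial and endothelial cells contribute to basement membrane.

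Values were TPM, transcript abundances per length that add up to the same total in every library, so the sequencing depth was unknown and no counting error could be given. The number of genes at 1 TPM or more was between 10634 and 11235 per library. KO library 3 stood apart, with the fewest such genes and with 80.3% of its TPM in its 50 most abundant genes, against 69.2% to 75.9% in the other libraries. Trp63, the targeted gene, stood at 1.59, 0.816 and 1.76 TPM in KO libraries 1, 2 and 3 and at 3.48, 1.85 and 3.68 TPM in WT libraries 1, 2 and 3. These groups did not overlap, but Trp63 did not pass the test (log2 fold change -0.74, SE 0.27, limma adjusted p = 0.27). The epithelial genes Epcam, at 200.2, 151 and 128 TPM in KO and 232, 172 and 199 TPM in WT libraries, and Krt18, at 272 TPM or more in every library, were abundant.

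Of these genes 4 passed as lower in KO samples and none as higher, namely Col3a1, Col6a3, Col15a1 and Serpinh1. They were 4 of 30 members tested, those that reached 1 TPM in 3 or more libraries. Over all 11268 genes tested, 0.319% were called lower and 0.071% higher, by limma on log2(TPM + 1) at a Benjamini-Hochberg adjusted p of 0.05. At an unadjusted p of 0.05, 18 tested members were lower and 1 was higher, where 10.5% and 4.99% of all genes tested were. Of the 60 members, 23 had all 3 KO values below all 3 WT values (10.6% of all genes in the table did) and 1, Lox, had all 3 above (3.83% did). These shares are lowered by genes at 0 in every library, which cannot separate. Of the 23366 genes, 18137 had a value above 0 in some library. Among the 30 members that averaged at least 1 TPM over all libraries, a choice that favours neither group, 16 lay fully below (15.1% of all such genes) and 1 fully above (5.52%). Among the 30 tested members 17 lay fully below (15.6% of all genes tested) and 1 fully above (5.42%). The median log2 fold change was -0.85 over the 30 tested members and 0.09 over all genes tested. Of the tested members, 4 (Col5a1, Col6a3, Col8a1 and Col15a1) reached 1 TPM in WT libraries alone and so entered the test through the group where they were high. Col6a3 and Col15a1, which passed, are thus among them. In whole-preparation RNA, fewer cells of a type and less RNA per cell cannot be told apart.

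The test depended on single libraries. Without KO library 3, 17 tested members passed as lower and 2, Lox and Col7a1, as higher, but 11.7% of all genes tested were then called lower and 33.8% higher. With array weights, which let limma give less weight to that library, the counts were 18 lower and 3 higher, beside 11.9% and 30.9% of all genes tested. Without KO library 1, 0 members passed in limma, and 11 of all 11268 genes tested did. Without WT library 1, 2 or 3, 0 members passed in limma, and 1, 0 and 0 of all genes tested did. At an unadjusted p under 0.05, the fit without KO library 1 had 22 members lower and 1 higher, beside 9.4% and 1.89% of all genes tested. The same counts were 16 and 1 without WT library 1 (5.95% and 1.85% of all genes tested), 18 and 1 without WT library 2 (7.25% and 1.84%) and 16 and 1 without WT library 3 (7% and 2.05%). Without KO library 2, Col3a1 alone of the members passed, and 16 of all 11268 genes tested did.

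**Figure D1:**
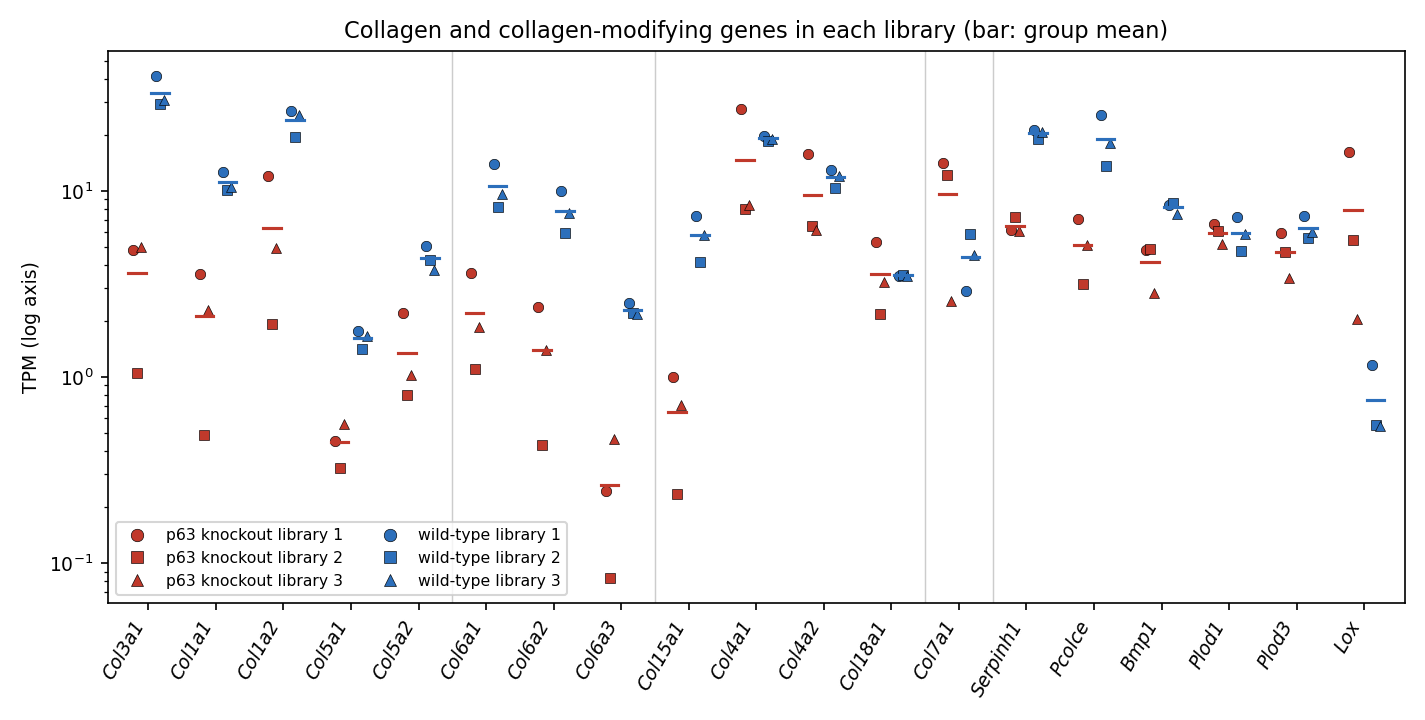
TPM on a log axis of 19 members in each library; red symbols are KO libraries, blue symbols are WT libraries, and short bars are group means. The fibrillar and type VI chains, Col15a1 and Serpinh1 lie lower in all 3 KO libraries, Col4a1, Col4a2, Col18a1 and Col7a1 overlap between the groups, and Lox lies higher in all 3 KO libraries.

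Of the fibrillar collagens Col3a1 fell, and the tested genes of types I and V lay below WT in every KO library without passing the test. Col3a1 encodes the single chain of type III collagen, the fibre of soft, extensible tissue. Its level was 4.84, 1.05 and 4.96 TPM in KO libraries 1, 2 and 3, against 41.4, 29.1 and 30.6 TPM in WT libraries 1, 2 and 3. The highest KO value was thus far below the lowest WT value, and the WT mean was 9.33 times the KO mean. Its log2 fold change was -3.05 (SE 0.43, limma adjusted p = 0.044), the 7th lowest of all genes tested. Col1a1 and Col1a2 encode the 2 kinds of chain in type I collagen, the main fibre of tendon, skin and gland capsule. Col1a1 had 3.58, 0.489 and 2.30 TPM in KO samples and 12.6, 10.1 and 10.5 TPM in WT samples (log2 fold change -2.09, SE 0.41, adjusted p = 0.073). Col1a2 had 12.0, 1.93 and 4.91 TPM in KO samples and 26.7, 19.5 and 25.4 TPM in WT samples (log2 fold change -2.02, SE 0.50, adjusted p = 0.12). The groups did not overlap for either gene, but neither passed the test, and KO library 2 held the lowest value of both.

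Type V collagen is a minor fibrillar type that sits inside type I fibres and limits their width. Its chain gene Col5a1 had 0.451, 0.323 and 0.560 TPM in KO samples and 1.76, 1.41 and 1.67 TPM in WT samples, with a log2 fold change of -0.86 (SE 0.16, limma adjusted p = 0.068). Col5a2 had 2.196, 0.799 and 1.02 TPM in KO samples and 5.04, 4.24 and 3.77 TPM in WT samples, with a log2 fold change of -1.23 (SE 0.27, limma adjusted p = 0.092). Both genes had separate groups and neither passed. Col5a1 reached 1 TPM in WT libraries alone and so entered the test through the group where it was high. Of the 11 fibrillar genes, 5 were tested, with a median log2 fold change of -2.02. All 5 of these had separate groups, where 15.6% of all genes tested lay fully below. The 6 others did not exceed 1.04 TPM in any library: among them Col5a3 stood at 0.664, 0.206 and 0.155 TPM in KO and 0.933, 1.04 and 0.374 TPM in WT libraries, and the cartilage gene Col2a1 was listed at 0 in 5 libraries and at 0.0135 TPM in KO library 2.

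Type VI collagen forms beaded microfibrils around cells, built from 1 chain each of alpha 1, alpha 2 and alpha 3. Col6a3, the alpha 3 gene, stood at 0.245, 0.0834 and 0.463 TPM in the KO libraries, against 2.49, 2.199 and 2.18 TPM in the WT libraries. It passed as lower in KO samples (log2 fold change -1.39, SE 0.18, limma adjusted p = 0.034), and on the plain TPM scale the WT mean was 8.68 times the KO mean. Col6a3 reached 1 TPM in WT libraries alone and so entered the test through the group where it was high. With no filter it did not pass (limma adjusted p = 0.051). Col6a1 had 3.62, 1.10 and 1.85 TPM in KO samples and 13.9, 8.21 and 9.58 TPM in WT samples (log2 fold change -1.90, SE 0.34, adjusted p = 0.066). Col6a2 had 2.37, 0.429 and 1.39 TPM in KO samples and 9.91, 5.897 and 7.55 TPM in WT samples (log2 fold change -1.94, SE 0.35, adjusted p = 0.066). All 3 chain genes had separate groups, where 15.6% of all genes tested lay fully below. The 2 that missed the threshold had the larger log2 fold changes on this scale. With a pseudocount of 0.1 TPM in place of 1, the log2 fold change was -2.86 for Col6a3 and -2.63 for Col6a2, and neither passed (limma adjusted p = 0.075 and 0.10). The alternative alpha chains Col6a4, Col6a5 and Col6a6 were below 1 TPM in every library, and their groups overlapped.

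Fibril-associated collagens sit on the surface of fibres. Of 9 such genes 3 were tested, and none passed in limma. At an unadjusted p under 0.05 in limma, 2 were lower and 0 higher, beside 10.5% and 4.99% of all genes tested. Col14a1 averaged 0.854 ± 0.608 TPM in KO samples and 2.86 ± 0.539 TPM in WT samples (SD, n = 3 each, log2 fold change -1.10, adjusted p = 0.13). Col16a1 averaged 1.45 ± 0.647 TPM in KO samples and 3.18 ± 0.286 TPM in WT samples (SD, n = 3 each, log2 fold change -0.80, adjusted p = 0.17). Both had separate groups, whereas Col20a1 overlapped, at 2.86, 1.61 and 0.823 TPM in KO and 2.02, 2.35 and 2.56 TPM in WT libraries. Col12a1 was below the filter, with 0.404 ± 0.201 TPM in KO samples and 0.395 ± 0.0280 TPM in WT samples (SD, n = 3 each). Of the short-chain type VIII genes, known from vessel walls and the cornea, Col8a1 stood at 0.247, 0.204 and 0.399 TPM in KO samples and 1.41, 1.35 and 1.53 TPM in WT samples (log2 fold change -0.92, SE 0.15, adjusted p = 0.059). Its partner Col8a2 was too low to be tested, at 0.117, 0.0161 and 0.109 TPM in KO samples and 0.508, 0.457 and 0.526 TPM in WT samples. For both type VIII genes the groups were separate, where 10.6% of all genes in the table lay fully below. Col8a1 reached 1 TPM in WT libraries alone and so entered the test through the group where it was high.

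Of the 5 basement membrane genes tested, Col15a1 passed and the other 4 overlapped between the groups. Col15a1 encodes type XV collagen, which lies where the basement membrane meets the fibrous matrix. It stood at 0.997, 0.235 and 0.707 TPM in the KO libraries and at 7.34, 4.16 and 5.78 TPM in the WT libraries, with no overlap. It passed as lower in KO samples (log2 fold change -2.04, SE 0.27, limma adjusted p = 0.036). Col15a1 reached 1 TPM in WT libraries alone and so entered the test through the group where it was high. With no filter it did not pass (limma adjusted p = 0.078). Col18a1 encodes type XVIII, the closest relative of type XV and the source of endostatin. Its values were 5.32, 2.17 and 3.25 TPM in KO samples and 3.50, 3.54 and 3.49 TPM in WT samples. The WT libraries were nearly equal and the KO libraries lay on both sides of them, with a log2 fold change of -0.03 (95% confidence interval -0.69 to 0.62, limma adjusted p = 0.95).

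Type IV collagen is the network of every basement membrane, and its common form pairs the alpha 1 and alpha 2 chains. Col4a1 had 27.6, 7.97 and 8.34 TPM in KO samples and 19.8, 18.4 and 19.1 TPM in WT samples. Col4a2 had 15.8, 6.43 and 6.12 TPM in KO samples and 12.996, 10.4 and 12.1 TPM in WT samples. For both genes KO library 1 was above all WT libraries and the other 2 KO libraries were below them. The log2 fold changes were -0.59 (95% confidence interval -1.61 to 0.44, limma adjusted p = 0.50) for Col4a1 and -0.41 (95% confidence interval -1.24 to 0.42, limma adjusted p = 0.55) for Col4a2. Both intervals reached past -1, so a level in KO samples 2-fold lower than in WT samples lay within them. Col4a5 overlapped too (0.957 ± 0.326 TPM in KO samples and 1.65 ± 0.485 TPM in WT samples, SD, n = 3 each). Of the chains of restricted type IV networks below the filter, Col4a3 stood at 0.323, 0.186 and 0.109 TPM in KO and 0.538, 0.508 and 0.662 TPM in WT libraries with separate groups, while Col4a4 and Col4a6 overlapped.

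Col7a1, the single chain of the anchoring fibrils that tie the basement membrane to the matrix below, had its highest values in 2 of the KO libraries. It stood at 14.2, 12.1 and 2.57 TPM in KO libraries 1, 2 and 3 and at 2.91, 5.86 and 4.51 TPM in WT libraries 1, 2 and 3. KO library 3 was the lowest of all 6, so the groups overlapped and the gene did not pass (log2 fold change 0.75, SE 0.55, limma adjusted p = 0.48). Without KO library 3 it passed as higher, at 1.41 (adjusted p = 0.0042), where the shares of all genes called were those given for that fit above. The other collagens of no larger class were low: the transmembrane type XIII gene Col13a1 averaged 1.204 ± 0.444 TPM in KO samples and 0.798 ± 0.0592 TPM in WT samples (SD, n = 3 each), with overlapping groups, and the rest stayed at or below 0.803 TPM.

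**Figure D2:**
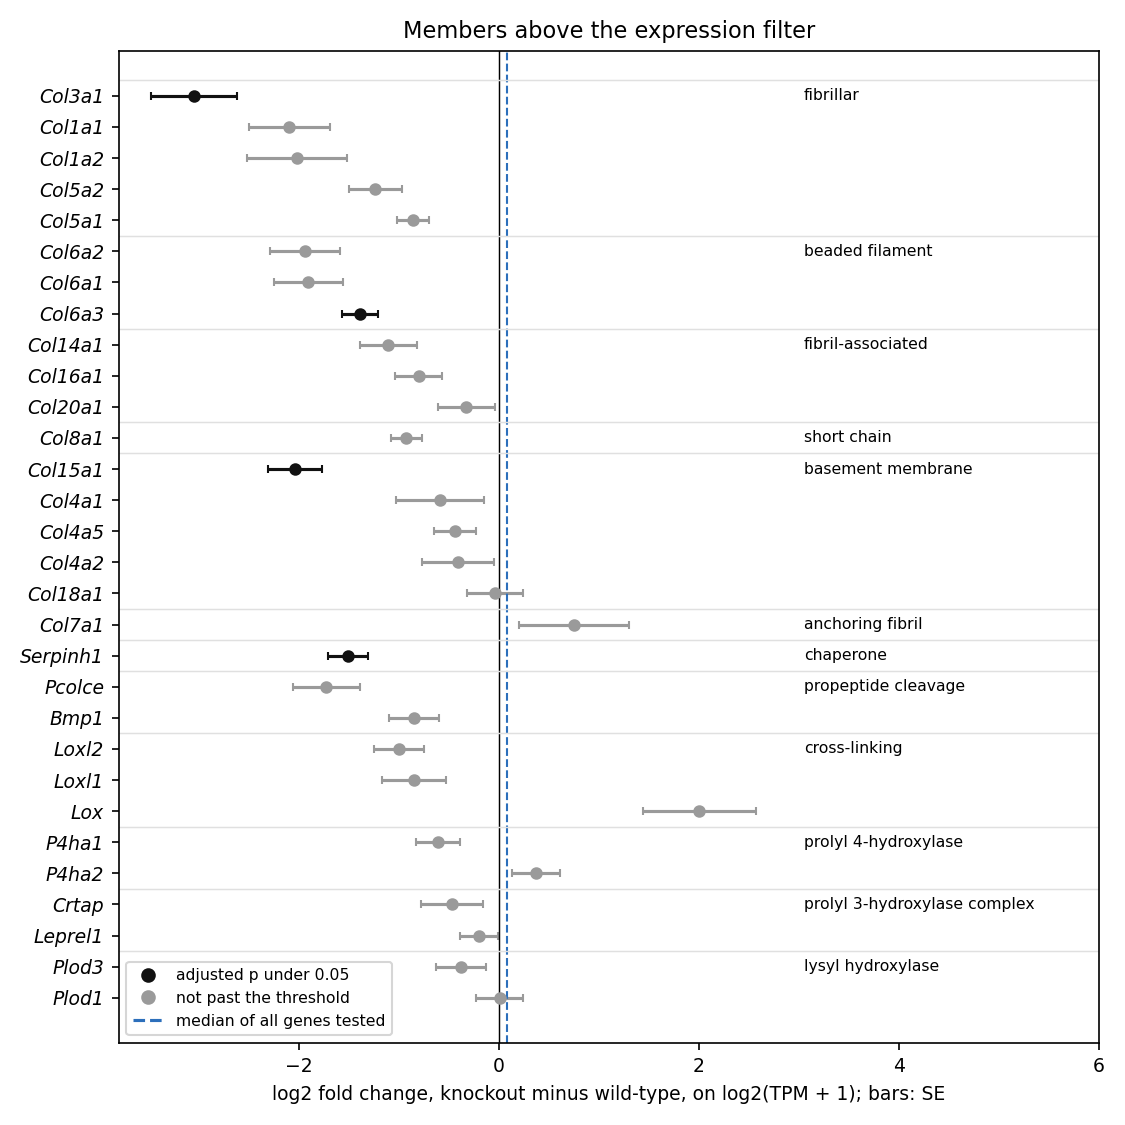
Log2 fold changes (knockout minus wild-type, horizontal axis) of the 30 tested members by role, with SE bars; black points passed at an adjusted p of 0.05 and grey points did not. The blue dashed line at 0.09 is the median of all genes tested; 26 members lie below 0, and Lox, at 2.01, lies furthest above.

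Serpinh1 encodes HSP47, the collagen-specific chaperone of the endoplasmic reticulum. It stood at 6.15, 7.26 and 6.09 TPM in the KO libraries, against 21.3, 19.1 and 20.6 TPM in the WT libraries. The spread within each group was small (SD 0.656 in KO samples and 1.16 TPM in WT samples, n = 3 each) beside the gap between them. It passed as lower in KO samples (log2 fold change -1.51, SE 0.20, limma adjusted p = 0.036). Unlike the fibrillar genes, it was not at its lowest in KO library 2, which held its highest KO value.

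The hydroxylase genes, counted together with Crtap, showed no member past the threshold (0 of 6 tested in limma). At an unadjusted p under 0.05 in limma, 1 was lower and 0 higher, beside 10.5% and 4.99% of all genes tested. Plod1, a lysyl hydroxylase, had 6.64, 6.05 and 5.16 TPM in KO samples and 7.23, 4.75 and 5.86 TPM in WT samples, with overlapping groups and a log2 fold change of 0.01 (95% confidence interval -0.53 to 0.56) whose sign depended on the scaling. Plod3, which adds both hydroxyl and sugar groups to lysine, had 5.93, 4.71 and 3.39 TPM in KO samples and 7.31, 5.58 and 6.01 TPM in WT samples, which overlapped (log2 fold change -0.38, 95% confidence interval -0.96 to 0.20). The 2 main catalytic subunits of prolyl 4-hydroxylase had log2 fold changes of opposite sign. P4ha1 stood at 1.19, 0.688 and 1.40 TPM in KO samples and 2.66, 1.69 and 2.17 TPM in WT samples with separate groups (log2 fold change -0.61, adjusted p = 0.25), and P4ha2 at 3.23, 4.78 and 2.54 TPM in KO samples and 2.42, 2.13 and 2.71 TPM in WT samples with overlap (log2 fold change 0.38, adjusted p = 0.45). Among the prolyl 3-hydroxylase genes, grouped here with Crtap, Crtap and Leprel1 overlapped between KO and WT samples (log2 fold changes -0.47 and -0.20). Lepre1, below the filter, averaged 0.467 ± 0.170 TPM in KO samples and 0.843 ± 0.215 TPM in WT samples (SD, n = 3 each).

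Both propeptide-processing genes had separate groups, where 15.6% of all genes tested lay fully below, and neither passed. Pcolce, whose product speeds up removal of the C-terminal propeptide from fibrillar procollagens, stood at 7.06, 3.16 and 5.09 TPM in KO samples and 25.6, 13.5 and 18.1 TPM in WT samples (log2 fold change -1.72, SE 0.33, limma adjusted p = 0.073). Bmp1, the protease that cuts the propeptide, stood at 4.82, 4.86 and 2.82 TPM in KO samples and 8.35, 8.59 and 7.46 TPM in WT samples (log2 fold change -0.85, SE 0.25, limma adjusted p = 0.17).

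Of the 3 lysyl oxidase genes tested, Lox had a positive log2 fold change and Loxl1 and Loxl2 negative ones, and none of them passed. Lox, the founding cross-linking enzyme of collagen and elastin, had 16.1, 5.44 and 2.04 TPM in KO libraries 1, 2 and 3 and 1.16, 0.550 and 0.542 TPM in WT libraries 1, 2 and 3. All 3 KO values were above all 3 WT values, but they spread widely, at 7.85 ± 7.31 TPM in KO samples and 0.750 ± 0.353 TPM in WT samples (SD, n = 3 each). It did not pass (log2 fold change 2.01, SE 0.56, limma adjusted p = 0.16), and without KO library 1, its highest, the log2 fold change was 1.36 (adjusted p = 0.22). Without KO library 3 it was 2.60 and passed (adjusted p = 0.0027). Loxl2, a relative that acts on type IV collagen, had 2.71, 1.11 and 1.72 TPM in KO samples and 4.99, 4.18 and 4.46 TPM in WT samples with separate groups (log2 fold change -0.996, adjusted p = 0.13). Loxl1, which serves elastic fibres, overlapped at 2.38, 0.833 and 0.798 TPM in KO samples and 3.99, 2.05 and 3.27 TPM in WT samples (log2 fold change -0.85, adjusted p = 0.27). Loxl3 was below the filter with separate groups (0.247 ± 0.0504 TPM in KO samples and 0.656 ± 0.105 TPM in WT samples, SD, n = 3 each), and Loxl4 was below it with overlap.

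The other 30 members were not tested, and 2 of them, Col9a1 and Col22a1, were listed at 0 in every library, which in a table without counts may also mean that no value was assigned. Among the 30 the highest value in any library was 1.65 TPM, for Col13a1 in KO library 1. Of the same 30, 6 had KO values fully below WT, namely Col4a3, Col8a2, Col9a3, Col11a1, Lepre1 and Loxl3, where 5.83% of all genes not tested did. That share is lowered by the many genes at 0 in every library, which cannot separate, so the 2 numbers are not on equal footing.

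Summed over all 43 collagen genes, the level was 109.8, 43.8 and 47.1 TPM in KO libraries 1, 2 and 3 and 180.2, 140.1 and 156.5 TPM in WT libraries 1, 2 and 3. The sum over the fibrillar genes was 24.7, 5.97 and 14.4 TPM in KO samples and 89.4, 66.7 and 73.5 TPM in WT samples, so the WT mean was 5.09 times the KO mean. The sum over type VI and related beaded-filament genes was 6.98, 1.64 and 3.95 TPM in KO samples and 27.2, 16.6 and 20.4 TPM in WT samples, a ratio of 5.10 of the same kind. Basement membrane genes summed to 53.1, 18.9 and 19.9 TPM in KO samples and 46.6, 39.1 and 44.3 TPM in WT samples, which overlapped. These sums are descriptions and were not tested.

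Shares of the collagen total also differed between the groups, as a description that was not tested. Col1a1, Col1a2 and Col3a1 together made up 18.6%, 7.94% and 25.8% of collagen TPM in the KO libraries and 44.8%, 41.9% and 42.5% in the WT libraries. Col4a1 and Col4a2 together made up 39.6%, 32.9% and 30.7% in KO samples and 18.2%, 20.5% and 19.9% in WT samples. Col7a1 alone held 12.9%, 27.7% and 5.46% of collagen TPM in KO samples and 1.61%, 4.18% and 2.88% in WT samples. The groups were separate for each of these 3 shares, which come from 1 total per library and are not independent of each other. A lower total raises the share of a gene that falls less. In KO library 3, Col7a1 had its lowest TPM of any library (2.57), yet its share of 5.46% was above every WT share.

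**Figure D3:**
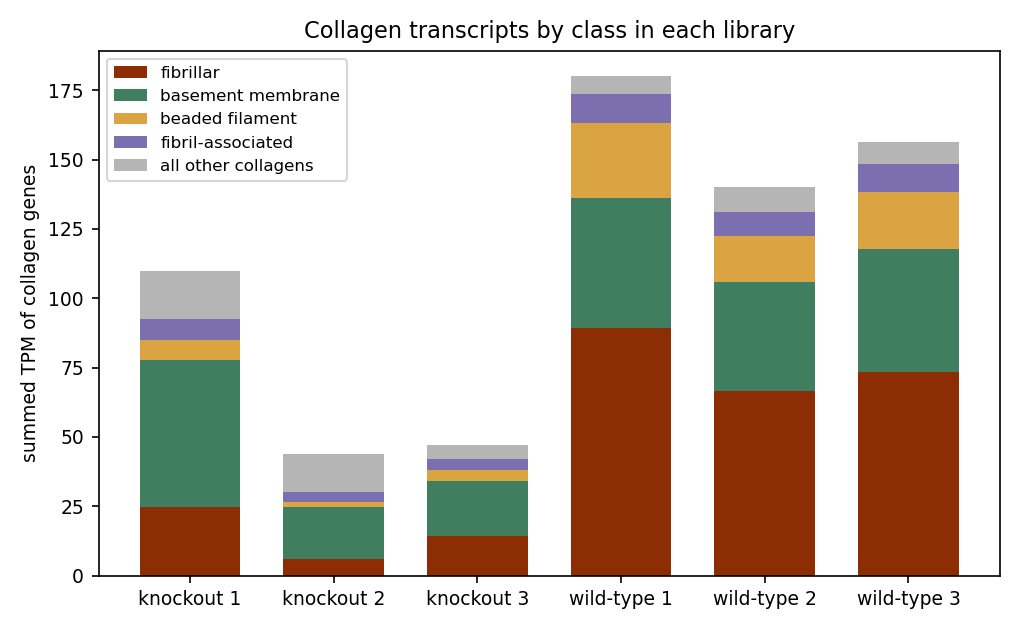
Summed TPM of the 43 collagen genes in each library, stacked by class, KO libraries at left and WT libraries at right. Fibrillar genes (brown) sum to 5.97 to 24.7 TPM in KO and 66.7 to 89.4 TPM in WT libraries, while basement membrane genes (green) reach 53.1 TPM in KO library 1.

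Ratios between chains within a library do not depend on how that library was scaled. A set of 6 was made for chains that assemble together or share a fibre. Col3a1 over Col1a1 was 1.35, 2.15 and 2.15 in KO samples and 3.28, 2.87 and 2.92 in WT samples, and the groups were separate. Permuting the 6 libraries exactly (two-sided permutation test) gave p = 0.1, the smallest that 3 libraries against 3 allow, and 0.36 after Benjamini-Hochberg adjustment over the 6 ratios. The other ratios overlapped. Col1a1 over Col1a2 was 0.298, 0.253 and 0.469 in KO samples and 0.474, 0.520 and 0.414 in WT samples (exact permutation p = 0.2, adjusted 0.36), so Col1a2 was the more abundant transcript per length in every library. Col4a1 over Col4a2 was 1.75, 1.24 and 1.36 in KO samples and 1.52, 1.78 and 1.58 in WT samples (exact permutation p = 0.3, adjusted 0.36). Col6a3 over Col6a1 was 0.0676, 0.0757 and 0.2497 in KO samples and 0.180, 0.268 and 0.227 in WT samples (exact permutation p = 0.3, adjusted 0.36). Col6a1 over Col6a2 was 1.53, 2.57 and 1.34 in KO samples and 1.40, 1.39 and 1.27 in WT samples (exact permutation p = 0.3, adjusted 0.36), with KO library 2 the highest. Col5a1 over Col5a2 was 0.205, 0.404 and 0.549 in KO samples and 0.350, 0.333 and 0.443 in WT samples (exact permutation p = 0.9, adjusted 0.90).

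**Figure D4:**
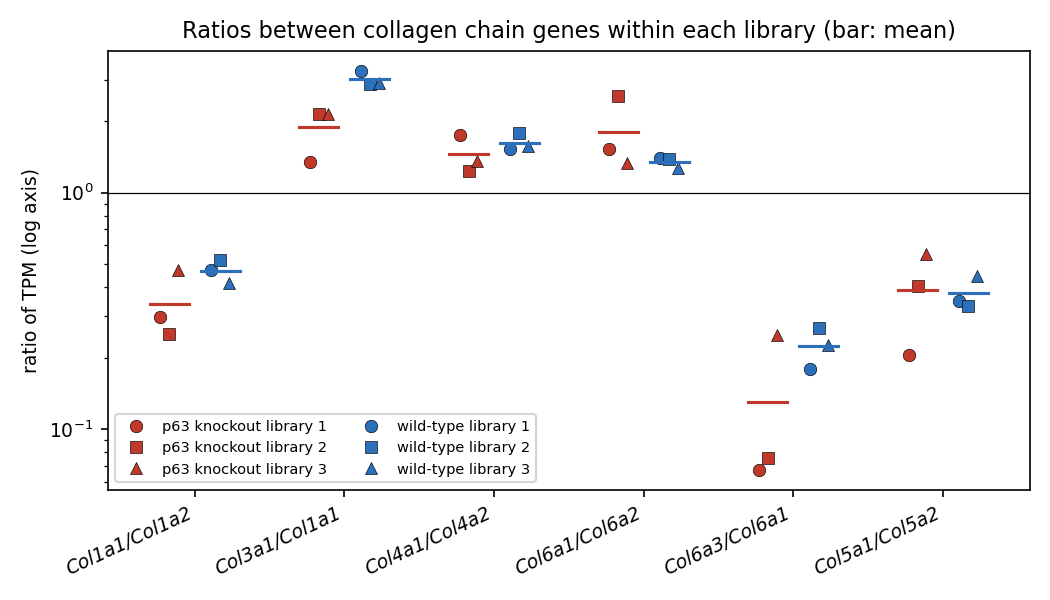
TPM ratios between collagen chain genes within each library, on a log axis with a line at 1; red symbols are KO libraries, blue symbols are WT libraries and short bars are means. Only Col3a1 over Col1a1 separates the 2 groups among these 6 ratios, at 1.35 to 2.15 in KO and 2.87 to 3.28 in WT libraries.

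KO libraries differed among themselves in an ordered way. KO library 2 held the lowest of all 6 values for 14 of the 18 tested collagens, and for all 12 of those whose groups were separate. KO library 1 held the highest KO value for 14 of the 18. Among WT libraries, library 1 was the highest for 13 and library 2 the lowest for 13. Libraries with the same number here also carry neighbouring library index numbers in their titles, 15 and 14, 20 and 19, and 30 and 29, although the labels state no pairing. The median over the tested members, as a log2 difference from the WT mean, was -0.55, -1.05 and -0.95 in KO libraries 1, 2 and 3, where that of all genes tested was 0.27, 0.24 and -0.29.

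Promoter sequences of the 4 members that passed are shown so that their starts can be compared. That of Col1a2 stands beside them as the type I chain gene with an entry in the RefSeq promoter table. They are the 250 bases before the RefSeq start in GRCm38.p6, a later build than the mm9 genome behind the TPM values, written 5′ to 3′ on the gene's strand. Capitals mark the letters TATAAA (the TATA box), those of the CCAAT box and the GC box letters GGGCGG, each on either strand. The positions are chr1:45311288-45311537 on the plus strand for Col3a1, chr1:90843972-90844221 on the minus strand for Col6a3, chr4:47207762-47208011 on the plus strand for Col15a1, chr7:99353240-99353489 on the minus strand for Serpinh1 and chr6:4505368-4505617 on the plus strand for Col1a2.
Col3a1: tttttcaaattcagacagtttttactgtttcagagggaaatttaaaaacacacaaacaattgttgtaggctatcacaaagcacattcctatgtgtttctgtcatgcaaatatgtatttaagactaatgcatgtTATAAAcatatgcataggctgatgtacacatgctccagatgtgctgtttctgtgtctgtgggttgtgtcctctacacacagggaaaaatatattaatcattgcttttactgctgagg
Col6a3: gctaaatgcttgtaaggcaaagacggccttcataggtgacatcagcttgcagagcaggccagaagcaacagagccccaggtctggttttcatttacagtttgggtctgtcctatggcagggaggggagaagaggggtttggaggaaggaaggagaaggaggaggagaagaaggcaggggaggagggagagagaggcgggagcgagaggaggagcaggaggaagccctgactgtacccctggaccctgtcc
Col15a1: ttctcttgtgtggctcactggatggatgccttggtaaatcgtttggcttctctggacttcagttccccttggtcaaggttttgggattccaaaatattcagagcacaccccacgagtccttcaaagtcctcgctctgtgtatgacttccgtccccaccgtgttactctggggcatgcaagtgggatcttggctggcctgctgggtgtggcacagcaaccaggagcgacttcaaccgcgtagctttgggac
Serpinh1: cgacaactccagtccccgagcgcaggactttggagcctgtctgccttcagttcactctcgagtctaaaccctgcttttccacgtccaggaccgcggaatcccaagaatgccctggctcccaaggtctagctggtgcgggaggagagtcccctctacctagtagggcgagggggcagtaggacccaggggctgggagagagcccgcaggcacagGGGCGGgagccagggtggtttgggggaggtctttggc
Col1a2: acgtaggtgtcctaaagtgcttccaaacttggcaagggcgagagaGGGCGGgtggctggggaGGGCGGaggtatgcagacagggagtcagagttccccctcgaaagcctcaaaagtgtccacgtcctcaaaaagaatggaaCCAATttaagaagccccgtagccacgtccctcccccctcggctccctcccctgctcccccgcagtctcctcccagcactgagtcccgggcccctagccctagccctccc
Col3a1 had 1 TATAAA, 117 bases before the RefSeq start, in a window of 35.2% G and C. Col1a2 had 1 CCAAT, 109 bases before the start, and 2 copies of GGGCGG, and Serpinh1 had 1 GGGCGG, 37 bases before the start. Their windows held 62.0% and 63.6% G and C. In Col6a3 and Col15a1 these letters were not found in this window. The table held 48 promoters for 44 of the 60 members. TATAAA occurred in 12.5% of these 48 and in 12.4% of all 32851 promoters of the table, CCAAT in 31.2% and 33.8%, and GGGCGG in 62.5% and 32.7%. None of the 3 motifs overlapped another in the windows printed. A match is a match of letters and not a measured binding site.

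Several members are neighbours on their chromosomes, among RefSeq protein-coding genes. Col3a1 lies next to Col5a2 on chromosome 1, and Col6a1 next to Col6a2 on chromosome 10. Both genes of these pairs had separate groups, where 15.6% of all genes tested lay fully below. Of the other 6 neighbouring pairs none had separate groups for both genes: Col4a3 alone was separate in the pair with Col4a4, and both genes overlapped between KO and WT for Col4a1 with Col4a2, Col4a5 with Col4a6, Col6a5 with each of Col6a4 and Col6a6, and Col9a1 with Col19a1. Of these, Col9a1 was listed at 0 in every library, and Col19a1, Col6a4 and Col6a5 did not exceed 0.193 TPM in any. Genes so low have little room to separate, and whether neighbours change together was not tested. Col4a1 and Col4a2 are neighbours on chromosome 8 and their RefSeq spans overlap, as do those of Col4a3 and Col4a4 on chromosome 1. The strand setting of the authors' counting is not given in the sources used here, so reads from these overlaps could have been shared or dropped. Plod3, Loxl3, Col9a3 and Col10a1 also overlap another coding gene.

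Genes that help collagen fold, leave the cell or be taken up again, but are no members, were read from a list of 28, of which 18 were tested. None passed in limma, and their median log2 fold change was -0.29. At an unadjusted p under 0.05 in limma, 3 were lower and 0 higher, beside 10.5% and 4.99% of all genes tested. Mia3, of the same list, was listed at 0 in every library. The 3 with the largest log2 fold changes were Ctsk, Mrc2 and Ppib. Ctsk, a collagen-degrading lysosomal protease, stood at 5.28, 2.72 and 1.90 TPM in KO samples and 7.35, 8.80 and 6.15 TPM in WT samples (log2 fold change -1.04, adjusted p = 0.20). Mrc2, a receptor for collagen uptake, stood at 0.196, 0.264 and 0.297 TPM in KO samples and 1.74, 1.29 and 1.49 TPM in WT samples (log2 fold change -0.998, adjusted p = 0.055). Both had separate groups, and Ppib, a proline isomerase, overlapped (log2 fold change -0.54). Mrc2 reached 1 TPM in WT libraries alone and so entered the test through the group where it was high. P4hb, the shared subunit of prolyl 4-hydroxylase that also works on many other proteins, was at 792, 663 and 727 TPM in KO samples and 746, 650 and 728 TPM in WT samples.

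Markers of fibroblasts other than collagens had negative log2 fold changes in 11 of 12 listed genes and a positive one in 1, Gsn. All 12 were tested, and none passed in limma. At an unadjusted p under 0.05 in limma, 4 were lower and 0 higher, beside 10.5% and 4.99% of all genes tested. Of the 12, 3 had separate groups, all lower in KO samples, where 15.6% of all genes tested lay fully below. The median log2 fold change was -0.61. The summed level ranged from 285 to 579 TPM in KO samples and from 454 to 561 TPM in WT samples, and no listed gene was at 0. The 3 separate genes were Lum, Sparc and Thy1, of which Thy1 reached 1 TPM in WT libraries alone and so entered the test through the group where it was high. Lum, a proteoglycan of collagen fibres, had 21.7, 3.22 and 6.27 TPM in KO samples and 44.7, 37.8 and 48.4 TPM in WT samples. Dcn, a proteoglycan that coats collagen fibres, had 213, 144 and 107 TPM in KO samples and 221, 176 and 223 TPM in WT samples, which overlapped (log2 fold change -0.47). Pdgfra, a receptor that marks fibroblasts, overlapped at 12.7, 4.99 and 3.77 TPM in KO samples and 8.05, 4.99 and 6.67 TPM in WT samples (log2 fold change -0.03). The sum of Col1a1, Col1a2 and Col3a1 was also divided by each of the 12 fibroblast genes, a description chosen after the values were seen and not tested. The WT mean of this sum was 5.71 times its KO mean. A lower ratio over genes that changed little was thus largely set in advance. The ratio was lower in all KO libraries than in all WT libraries over 10 of the 12, Dcn and Pdgfra among them, and overlapped over Lum and Fn1. Over Dcn it was 0.0957, 0.0241 and 0.114 in the KO libraries and 0.365, 0.334 and 0.298 in the WT libraries. Over Lum it was 0.940, 1.08 and 1.94 in KO samples and 1.81, 1.55 and 1.37 in WT samples. Over Serpinh1 it overlapped too, at 3.32, 0.479 and 1.997 in KO samples and 3.79, 3.08 and 3.22 in WT samples.

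**Figure D5:**
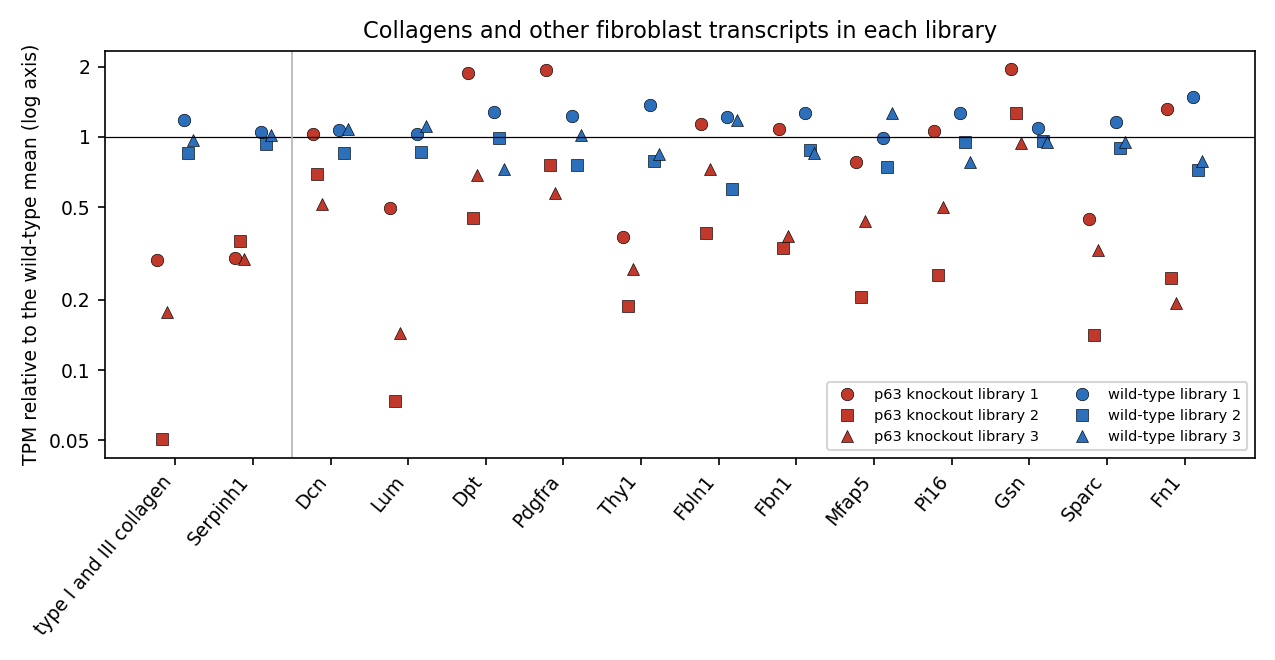
TPM of each library divided by the WT mean, on a log axis, for the sum of Col1a1, Col1a2 and Col3a1, for Serpinh1 and for 12 fibroblast genes that are no collagens; red symbols are knockout and blue symbols WT libraries. The type I and III sum and Serpinh1, with Lum, Thy1 and Sparc, lie below all WT libraries in KO samples, while the other 9 fibroblast genes, Dcn and Pdgfra among them, overlap.

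Marker lists of other cell types differed in whether their sums overlapped between the groups, and their part in the collagen results was not tested. Beside the counts below, 15.6% of all genes tested lay fully below and 0.319% were called lower. At an unadjusted p under 0.05 in limma, 10.5% of all genes tested were lower and 4.99% higher. Myoepithelial genes summed to 166 to 277 TPM in KO samples and 499 to 561 TPM in WT samples: of 8 listed, 7 were tested and all 7 had separate groups, and Cnn1 and Krt14 passed as lower in KO samples. Pericyte and smooth muscle genes summed to 33.1 to 56.9 TPM in KO samples and 72.5 to 77.3 TPM in WT samples, with 3 of 8 separate and lower. Without Myh11, which myoepithelial cells can also express, that sum overlapped, at 19.5, 20.8 and 12.8 TPM in KO samples and 18.6, 16.2 and 21.9 TPM in WT samples. Leaving out Myh11 was a description chosen after the values were seen, and it was not tested. Of the 7 genes tested in that list 3 had positive log2 fold changes. Endothelial genes summed to 21.5 to 30.2 TPM in KO samples and 33.2 to 34.7 TPM in WT samples, with 4 of 9 separate and lower. Of these 4, Tek reached 1 TPM in WT libraries alone and so entered the test through the group where it was high. Macrophage genes summed to 119 to 144 TPM in KO samples and 205 to 209 TPM in WT samples, with 3 of the 7 in the table separate and lower. Schwann cell genes (8.71 to 23.9 TPM in KO samples and 14.3 to 14.9 TPM in WT samples), adipocyte genes (41.5 to 249 TPM in KO samples and 84.6 to 286 TPM in WT samples) and epithelial genes (632 to 1577 TPM in KO samples and 816 to 948 TPM in WT samples) overlapped in their sums. Krt18 alone gave 907, 1059 and 272 TPM of the epithelial sums in KO samples and 411, 379 and 368 TPM in WT samples. Krt19 was the 1 separate epithelial gene and was lower in KO samples. In the pericyte, endothelial, macrophage, Schwann, adipocyte and epithelial lists none passed in limma (at an unadjusted p under 0.05, 1, 3, 3, 1, 1 and 1 genes were lower and 0 higher), and in none of the lists was a gene in the table at 0 in every library.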

How the data were processed

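RNA-seq values of 3 p63 knockout and 3 wild-type libraries were analysed, with groups taken from the genotype label. The authors deposited TPM, that is raw counts scaled by gene length and by library size (per the labels). TopHat2 2.1.1, Bowtie2 2.2.6, featureCounts 1.5.1, DESeq2 1.20.0 and mm9 are named in the submitters' processing notes, without roles. Annotation, gene lengths, strand setting and depth are not given in the sources used here, so counting error is unknown.

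Genes that reached 1 TPM in 3 or more libraries were tested on log2(TPM + 1) with limma 3.58.1 (mean-variance trend) in R 4.3.3, with Benjamini-Hochberg adjustment over all genes tested. For low genes this scale gives fold changes that are too small. Chain ratios were tested with scipy 1.17.1 in Python 3.11.15, and figures were drawn with matplotlib 3.10.9. Promoters came from RefSeq (GRCm38.p6); older symbols were matched through its synonyms, and all 60 members were matched by name.

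The members, gene lists and tests were chosen with earlier results of these data known. Full values are given for members that passed or averaged at least 5 TPM and for chains of the set ratios; others are examples named after their values were seen. The alternatives are listed in the closing section.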

Additional observations from a re-analysis of the deposited data

How the results depend on the processing

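The alternatives were other scalings, pseudocounts and filters, other limma settings, a replicate block that joins libraries of neighbouring index number, and leaving out each library. The number of members called lower was 4, and it was 18 with array weights, 2 with the 5 TPM filter, 0 with no filter, 1 with a pseudocount of 0.1 TPM, 1 after rescaling without the 50 most abundant genes, 2 with the block, and 0 to 17 when 1 library was left out. The number called higher was 0, and it was 3 with array weights and 0 to 2 when 1 library was left out. With no filter, 23 members of 58 were lower and 1 higher at an unadjusted p under 0.05 in limma, beside 9.91% and 3.84% of 18137 genes. Over all genes 44 were called, and 4822 with array weights, 29 with the 5 TPM filter, 11 with no filter, 25 with a pseudocount of 0.1 TPM and 0 to 5127 when 1 library was left out. Array weights gave KO library 3 a weight of 0.0900, against 0.763 to 2.76 for the others. The median over tested members was -0.85, and it moved to -1.51 with the 5 TPM filter (13 members tested), -0.33 with no filter (58 tested), -1.22 with a pseudocount of 0.1 TPM and -1.17 after rescaling, which raises low values relative to the pseudocount. Plod1 turned negative under median-of-ratios scaling (-0.035), quantile normalization (-0.10) and rescaling (-0.045), and was 0.14 to -0.12 when 1 library was left out.

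Col3a1 lost its call in 8 of 17 alternatives, Col6a3 in 10 of 16, Col15a1 in 8 of 16 and Serpinh1 in 7 of 17, with no change of sign. Their adjusted p ranged from 0.00042 to 0.25, 0.00061 to 0.22, 0.00076 to 0.22 and 0.00057 to 0.26. With the block, Col3a1 and Col15a1 passed and Col6a3 (adjusted p = 0.057) and Serpinh1 (adjusted p = 0.074) did not. Deviations from the group means correlated at 0.17, 0.23 and 0.08 within the neighbouring pairs, and each library correlated best with its own neighbour, a hint from the data and not from the design. Each call was lost without KO library 1 and without any 1 of the WT libraries, fits in which 11, 1, 0 and 0 of all genes tested passed. When 1 library was left out, the log2 difference in Col5a1 over Col5a2 was -0.37 to 0.34 (-0.06 with all libraries), in Col6a3 over Col6a1 -1.63 to -0.69, in Col1a1 over Col1a2 -0.77 to -0.32, in Col3a1 over Col1a1 -0.82 to -0.49, in Col4a1 over Col4a2 -0.32 to -0.07 and in Col6a1 over Col6a2 0.08 to 0.55. Members at low TPM are limited by an unknown depth.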
